A study of Ovis aries with 3 samples.

Results

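The miR-320 family was examined in small RNA libraries from sheep left ventricular (LV) myocardium. Its members were chosen by name alone, as the entries of the 2 merged count tables called miR-320 or miR-320a to miR-320e without the species prefix, on any arm. This gave 2 entries of 636, miR-320a and miR-320e, both from the table of miRNAs aligned with human (hsa-), mouse (mmu-) or rat (rno-) names. No merged entry had the name miR-320b, miR-320c or miR-320d, and these names were not analysed further. The animals were Coopworth ewes in 3 conditions. The Control (Cont) sheep had no treatment. The heart failure (HF) sheep were paced rapidly at the LV, at about 220 bpm for 13 days by the treatment label and at 225 bpm for 14 days by the sample description. The recovery (HF-R) sheep were sampled after pacing had ended, 26 days later by the treatment label and 14 days later by the description. Before library preparation RNA was pooled within each condition (4 Control sheep, 6 failing and 4 recovered), so each condition was 1 library. Values below are in the order Cont, HF, HF-R where 3 are given without names. No spread between sheep could be computed and no test between conditions was possible. Rapid pacing without infarction limits the model to failure from sustained tachycardia, and HF-R cannot be told apart from the later time of sampling.

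Most miRNAs are cut from a long primary transcript by the nuclear enzyme Drosha and then by Dicer. In mouse, miR-320 is made without Drosha. Its hairpin is the very start of a short capped transcript, the cap stays on the 5′ arm, and Dicer releases the 3′ arm, which is the strand loaded into Argonaute. A miRNA recognises its targets mainly through its seed, bases 2 to 8. In the mouse heart, miR-320 is known for its effect on injury after ischaemia and reperfusion and for targeting the small heat shock protein Hsp20.

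The mature sequences are shown because the results turn on how alike they are, with the seed of each member in capitals and letters as in the DNA. All are in the sheep build Oar v4.0, on the plus strand. The miR-320a entry was at chr2:43152961-43152982, and the miR-320e entry at chr26:32370702-32370719. The opposite arm, miR-320-5p, was not in the merged tables but was in the tables of each library, at chr2:43152929-43152950, which ends 10 bases before miR-320a.
miR-320a: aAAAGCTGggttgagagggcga
miR-320e: aAAGCTGGgttgagaagg
miR-320-5p: gccttctcttcccggttcttcc

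The miR-320a entry was 22 nt long and perfectly aligned (100%) with the known miRNA. The miR-320e entry was 18 nt long and partially aligned (70–99%). Laid on miR-320a, counted from 1 at its 5′ end, miR-320e covered bases 2 to 19. It shared 17 of these 18 bases and differed by the substitution G17A. Because miR-320e begins 1 base later, its seed AAGCTGG was shifted against the seed AAAGCTG of miR-320a. In the 636 entries, each of these seeds was carried by 1 entry only. No other entry lay within 10 kb of either member. The gene annotation at these positions was not analysed here.

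The merged tables held 621 distinct entries once 15 that repeated the counts of an overlapping entry were taken only at their first listing. Their counts summed to 4711131, 6154795 and 5990078, and counts per 1000000 (CPM) were taken over these sums. Of the 2 members, 1 passed the minimum mean of 10 counts (miR-320a), as did 356 entries in all. As a check of the labelled tissue, 16 heart muscle entries (miR-1, miR-133, miR-208 and miR-499) made up 33.0%, 33.3% and 39.7% of counts, with none at 0. The 6 red blood cell entries (miR-144, miR-451 and miR-486) summed to 3920, 3915 and 3230 CPM. The sum hides differences among those with a mean of at least 100 counts. Log2 HF/Cont was -0.37 for miR-144-3p and -0.39 for miR-451-5p, but 0.01 for miR-486-5p and 0.07 for miR-486b-3p. Log2 HF-R/Cont was -0.81, -0.98, -0.22 and -0.43 in the same order. The 4 leukocyte entries (miR-142, miR-150 and miR-223) summed to 413, 275 and 311 CPM, and the 4 fibroblast entries (miR-199 and miR-214) to 1267, 1616 and 1768 CPM, with none at 0 in either list. With these library totals, fibroblast, leukocyte and some red blood cell markers thus moved between the libraries in which miR-320a moved. Their part in its values was not tested. The marker sums were not computed with any other scaling of the libraries. The endothelial marker miR-126 had no entry here. In bulk tissue, fewer cells of a type and less RNA per cell cannot be told apart.

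Perfectly aligned miR-320a was at its highest in HF and at nearly the same level in Cont and HF-R. Cont held 1128 counts, or 239 CPM (95% exact Poisson interval 226–254). HF held 3271 counts, or 531 CPM (513–550). HF-R held 1451 counts, or 242 CPM (230–255). The HF interval lay above those of Cont and HF-R, and the intervals of Cont and HF-R overlapped. All intervals cover counting error only, since PCR reads without molecular identifiers are not independent molecules and the libraries were not replicated. By level, miR-320a ranked 82, 67 and 79 of the 621 distinct entries.

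HF/Cont was 2.22 for perfectly aligned miR-320a (95% exact interval 2.07–2.38). An entry was called when its CPM ratio was at least 1.5 or at most 1/1.5 and its interval excluded 1, so miR-320a was called higher in HF. In this comparison 30.6% of the 356 entries were called, 22.8% higher and 7.87% lower. With the library totals a call upwards was therefore common, with 81 entries higher and 28 lower. With TMM factors 42 were higher and 74 lower, and with DESeq2 size factors 52 and 53. The ratio of miR-320a exceeded that of 91.0% of the entries, and 31 had a higher one. In every comparison the 356 entries mix perfectly and partially aligned ones, whereas this value of miR-320a is from perfect matches only. Its rank among perfectly aligned entries alone was not computed. The median ratio of all 356 entries was 1.12, and miR-320a was 1.98 times that median.

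HF-R/HF was 0.456 (0.428–0.485), and miR-320a was called lower. Here 28.4% of entries were called, 5.06% higher and 23.3% lower, with a median ratio of 0.817. Relative to that median, miR-320a was at 0.558. This comparison uses the same HF library as HF/Cont, so its direction is not independent of the first.

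HF-R/Cont was 1.01 (0.94–1.09) for miR-320a, which was not called. In that comparison 16.0% of entries were called, 4.78% higher and 11.2% lower, and the median ratio was 0.980. The interval limits a difference between these 2 libraries, by counting error alone, to 1.09-fold upwards and 0.94-fold downwards.

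The merged table gave few counts for miR-320e, at 9, 8 and 12. These were 1.91, 1.30 and 2.00 CPM, against a limit of 3 counts or 0.637, 0.487 and 0.501 CPM. HF/Cont was 0.68 (0.23–1.99). HF-R/Cont was 1.05 (0.41–2.82), and HF-R/HF was 1.54 (0.58–4.35). All intervals included 1, and none was called. By these counts miR-320e was 0.79% of the family in Cont (95% exact binomial interval 0.36–1.497). Its share was 0.24% (0.11–0.48) for HF and 0.82% (0.42–1.43) for HF-R.

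The tables of each library gave other counts for miR-320e. They listed it with no perfect match and with 7849, 10901 and 10201 partial matches, or 1666, 1771 and 1703 CPM of the merged totals. The merged counts of 9, 8 and 12 were instead exactly those of miR-32-3p, a different miRNA at chr2:14247064-14247085, in the merged table and in the tables of each library. Of the 227 partially aligned entries in that merged table, 209 had the counts given per library and 18 did not, miR-320e among the latter. The merged counts thus cannot be taken as a measure of miR-320e. The entries that differed were not taken out of the library totals, the background shares or the other comparisons for this reason. The perfect counts of miR-320a were the same in both kinds of table. No such comparison is given here for the other entries. With the counts of each library, miR-320e was 45.6%, 42.2% and 45.7% of the family, but nearly all read sequences behind that share were also listed for miR-320a.

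**Figure D1:**
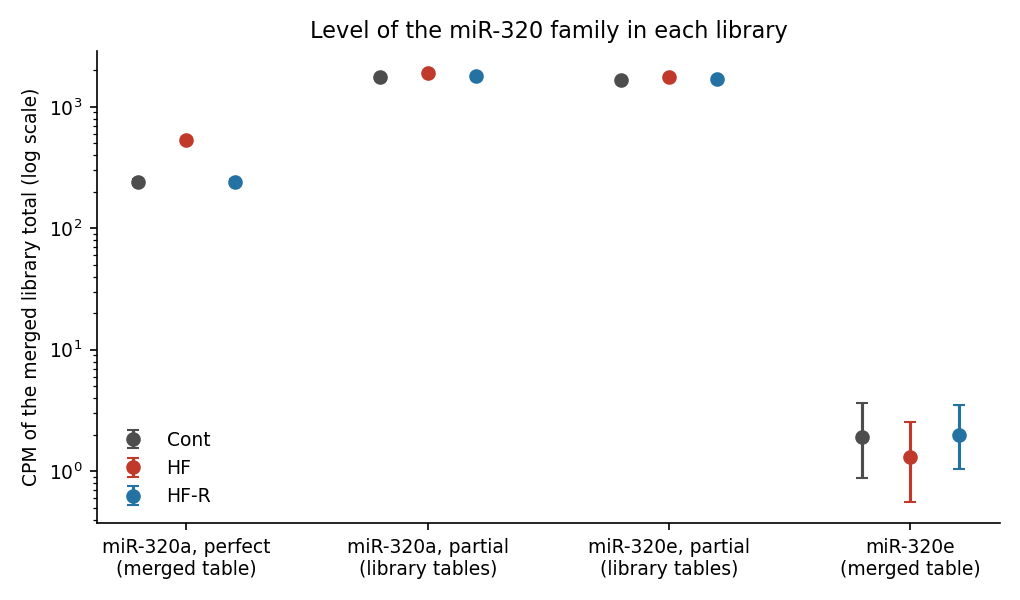
Level of the miR-320 family in each library, as CPM of the merged library total on a log axis, with points for Cont, HF and HF-R and bars for 95% exact Poisson intervals (counting error only, mostly smaller than the points). Perfectly aligned miR-320a stands higher in HF at 531 CPM, while partial matches of miR-320a and miR-320e lie between 1666 and 1890 CPM in every library and the merged miR-320e counts lie at or below 2.00 CPM.

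The reads listed under both names were largely the same. The tables of each library give, for each known miRNA, the distinct read sequences that matched it, without a count for each read. Under miR-320e they listed 377, 493 and 438 read sequences. Of these, 374 (Cont), 484 (HF) and 431 (HF-R) were also listed under miR-320a, which was 99.2%, 98.2% and 98.4% of the miR-320e list. The shared reads were 64.2%, 62.5% and 65.8% of the longer miR-320a list. How many counts were taken under both names could not be computed from these tables.

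No listed read was the 18 nt miR-320e sequence itself. It was held whole by 5, 11 and 7 read sequences, which came to 15 distinct reads. Of these, 3 were listed in all 3 libraries and are shown because they decide what can be said of miR-320e, with the base that differs from miR-320a (G17A) in capitals.
Length 22 nt: aaaagctgggttgagaAggcga
Length 23 nt: aaaagctgggttgagaAggcgat
Length 24 nt: aaaagctgggttgagaAggcgaat
In each, the base before the miR-320e sequence and the 3 bases after it were those of miR-320a, and the longer reads went on with t or at past the last base of miR-320a. Where the changed base came from was not tested.

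Partial matches of miR-320a did not share the height of the perfect ones in HF. Partial counts were 8220, 11635 and 10654, or 1745, 1890 and 1779 CPM of the merged totals. HF/Cont of the partial matches was 1.08 (1.05–1.11), against 2.22 for the perfect ones. HF-R/Cont was 1.02 (0.99–1.05) and HF-R/HF was 0.941 (0.916–0.966). None reached 1.5-fold in either direction, and the perfect and partial intervals for HF/Cont did not overlap.

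With perfect and partial matches added, miR-320a held 9348, 14906 and 12105 counts. HF/Cont was then 1.22 (1.19–1.25) and HF-R/HF 0.834 (0.815–0.855), so the calls in both comparisons ended. HF-R/Cont stayed at 1.02 (0.99–1.05). Scaled to the sum of the perfect and partial tables of each library, HF/Cont was 1.31 (1.27–1.34) and HF-R/HF 0.760 (0.742–0.778), again short of a call. The HF level of miR-320a therefore depended on whether reads that were not exactly the 22 nt miRNA were counted.

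**Figure D2:**
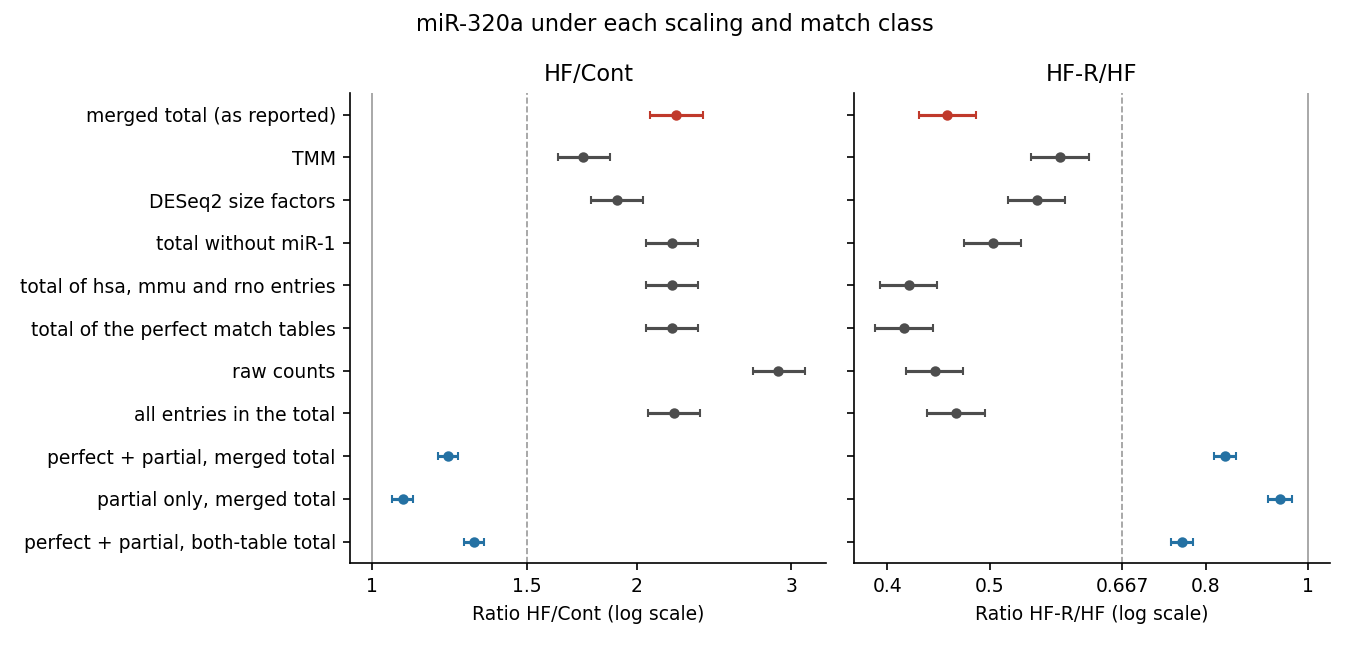
CPM ratios of miR-320a for HF/Cont and HF-R/HF on log axes under each scaling and match class, with 95% exact intervals from counting error. The solid line marks equal levels and the dashed line the 1.5-fold limit. The reported value and every scaling of the perfect matches lie beyond the limit (1.74 to 2.90 for HF/Cont), and the 3 values that include partial matches lie short of it (1.08 to 1.31).

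Perfect matches were 12.1% of miR-320a counts in Cont (95% exact binomial interval 11.4–12.7), 21.9% of those in HF (21.3–22.6) and 11.99% of those in HF-R (11.4–12.6). The exact 22 nt sequence was thus a minority of miR-320a counts in all 3 libraries, and its share was highest in HF. The share of perfect matches was also higher in HF for other miRNAs. Over 85 miRNA sequences with at least 100 perfect and 100 partial counts in every library, the median was 38.6%, 41.9% and 39.0%. The share was higher in HF than in Cont for 72 of the 85, and the median difference over all 85 was 4.84 percentage points. Some of the 85 had the same shares as another sequence in every library. Their reads may be the same, but each was counted. For miR-320a the difference was 9.88 points, and 10 sequences had a larger one. In Cont, 11 sequences had a lower share than miR-320a. What moved the share was not tested.

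**Figure D3:**
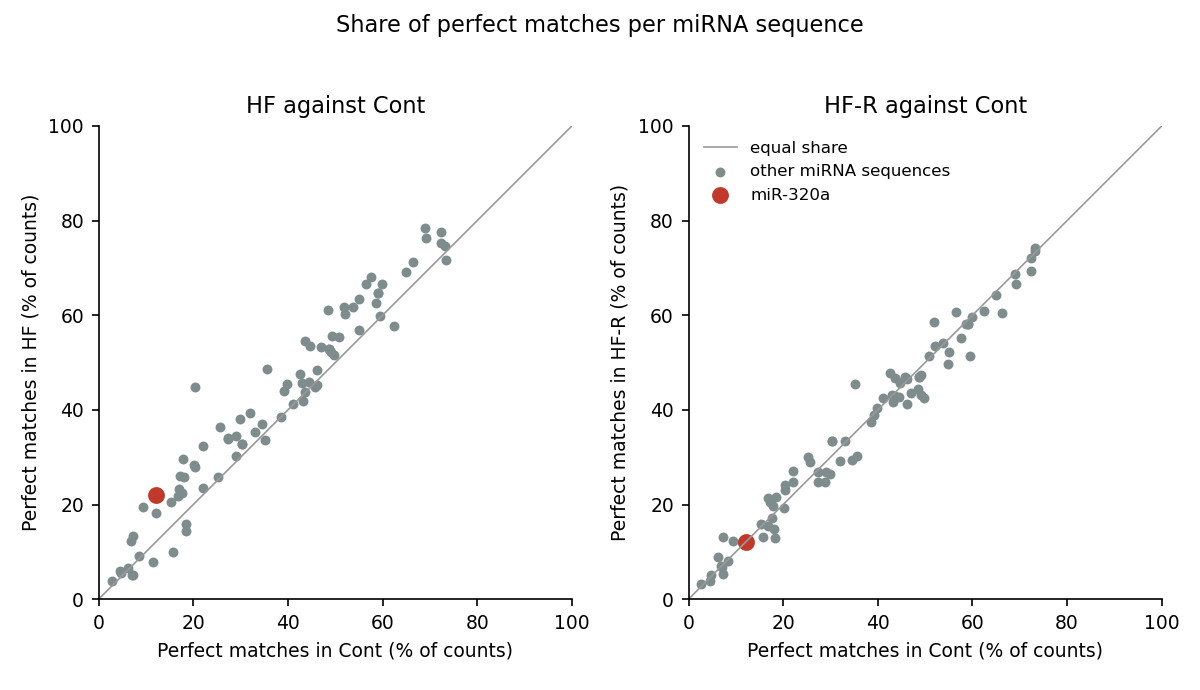
Perfect matches as a percentage of perfect and partial counts in HF (left) and HF-R (right) against Cont, 1 point for each of 85 miRNA sequences, with a line of equal share. In HF most points lie above the line and miR-320a moves from 12.1% to 21.9%, while in HF-R the points scatter about the line and miR-320a lies on it at 11.99%.

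The partially aligned reads show the forms of sequence listed for miR-320a. Whether forms with a mismatch were present in the tissue or arose in sequencing was not tested. In all, 583, 775 and 655 read sequences were listed, with 1245 distinct ones over the 3 libraries and 269 in every library. They were 15 nt long or more, with a median of 23 nt in each library and a maximum of 27, 30 and 28 nt. These numbers count sequences and not molecules, and a deeper library lists more of them. No other known miRNA in these tables than miR-320e had a read in common with miR-320a.

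The 5′ end was the steadier end of miR-320a. Of the listed sequences, 71.9%, 74.3% and 73.3% began at base 1. The whole seed was held by 78.2%, 77.8% and 78.8%. Sequences that began at base 2, which would shift the seed by 1 base, numbered 87 (Cont), 133 (HF) and 101 (HF-R). The 3′ end varied more, with 61.2%, 57.7% and 60.3% of sequences ending after base 22.

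Examples listed in all 3 libraries are shown for the 3 kinds of change at the ends. The shortest start of miR-320a and the form without base 1 have in capitals the bases that are the seed of the full miRNA, which are bases 1 to 7 of the form without base 1, and the forms with a 3′ tail have the added bases in capitals.
Shortest: aAAAGCTGggttgag
Base 1 missing: AAAGCTGggttgagagggcga
Tail of 1 base: aaaagctgggttgagagggcgaT
Tail of 2 bases: aaaagctgggttgagagggcgaAT
Tail of 3 bases: aaaagctgggttgagagggcgaAAT

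The whole miRNA with added 3′ bases made up 60, 71 and 70 listed sequences. Of these tails 47 were listed in all 3 libraries, the longest of 5 bases. A or T alone made up 17 of them, and 19 ended in T. A single A added to the unchanged miRNA was not listed in any library. The form with G17A and a single added A was listed in HF and HF-R. Why the lists differ in this was not tested. Whether the hairpin itself goes on with any of these bases was not analysed here.

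Sequences without a mismatch inside miR-320a numbered 157, 155 and 177. Those with 1 mismatch numbered 312, 407 and 321, and those with more numbered 114, 213 and 157. Single mismatches were most often at base 22 (48, 60 and 53 sequences) and next at base 20 (33, 37 and 34), at the 3′ end and outside the seed. The number of sequences with more than 1 mismatch was thus highest in HF, the library with the most partial counts.

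**Figure D4:**
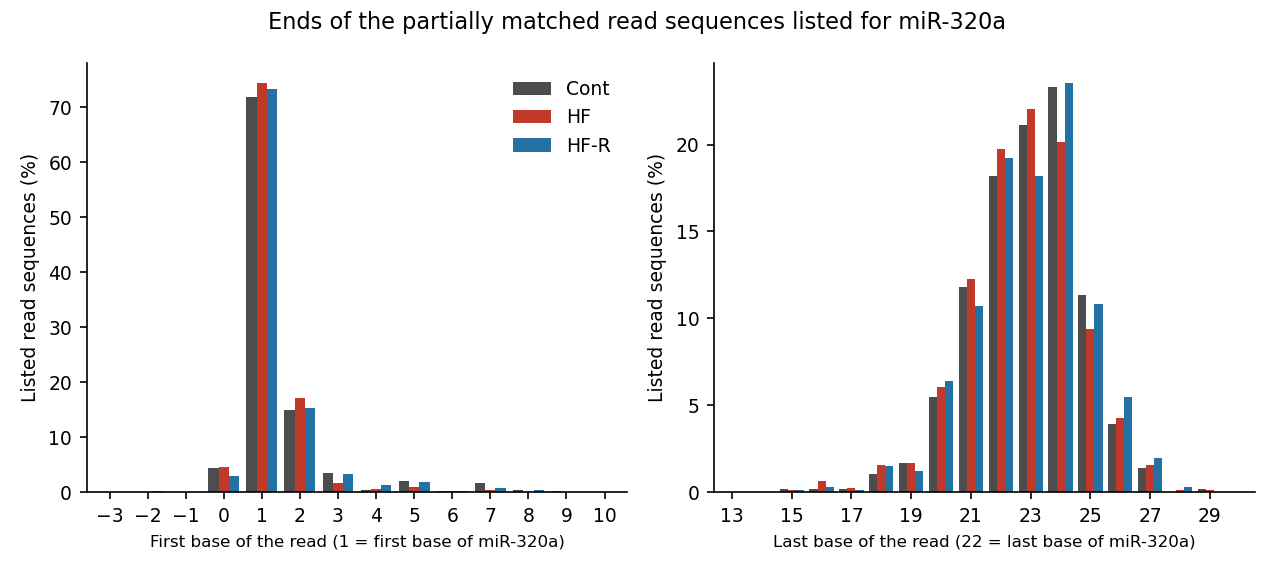
First base (left) and last base (right) of the partially matched read sequences listed for miR-320a, laid on the miRNA without gaps, as a percentage of the sequences listed in each library (bars for Cont, HF and HF-R). Starts gather at base 1 with 71.9% to 74.3% of sequences, whereas ends spread mainly over bases 20 to 26.

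The 5′ arm of the miR-320 hairpin was almost absent from the counts. Library preparation ligated adaptors to the 5′ and 3′ ends of the RNA. How well it captures an arm with a capped 5′ end was not tested, so these counts do not measure the arm in the tissue. The sequence miR-320-5p had 1 perfect count in HF, 2 partial counts in HF-R and none in Cont. That was 3 counts over the 3 libraries, against 36359 perfect and partial counts of miR-320a, the 3′ arm. With 0 counts in Cont the limit is 3 counts, so no difference between conditions was detectable at this depth.

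Other miRNAs known to skip Drosha or Dicer made a list of 6 entries, of which 3 passed the minimum mean of 10 counts. The HF/Cont ratios of these 3 were 0.765 to 1.01, against 2.22 for perfectly aligned miR-320a. In HF/Cont 0 of these 3 were called in either direction, where 30.6% of all entries were called. In HF-R/Cont, and likewise in HF-R/HF, 0 were called higher and 1 lower (miR-451-5p each time), where 11.2% and 23.3% of all entries were called lower. With 3 entries, these counts do not set the list apart from all entries. Their median HF/Cont was 0.842, beside 1.12 for all 356 entries. The medians of HF-R/Cont (0.682) and HF-R/HF (0.810) stood beside 0.980 and 0.817. Each of these 3 medians was the value of 1 entry, the partially aligned miR-877-3p, with 30, 33 and 26 counts. Its intervals included 1 (0.50–1.43, 0.39–1.19 and 0.46–1.40), so the medians do not describe the list as a whole.

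The sequence of miR-484, the other miRNA of the list made from the start of a transcript without Drosha, is shown with its seed in capitals for comparison with miR-320a. It lies on the plus strand at chr24:14048766-14048787.
miR-484: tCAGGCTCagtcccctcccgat
It held 1047, 1387 and 1156 counts. HF/Cont was 1.01 (0.94–1.10), HF-R/Cont 0.868 (0.798–0.945) and HF-R/HF 0.856 (0.791–0.927). None was called. Its HF/Cont interval lay wholly below that of perfectly aligned miR-320a.

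The red blood cell miRNA miR-451-5p needs Drosha but is cut by Argonaute2 in place of Dicer. It held 653, 653 and 421 counts. HF/Cont was 0.765 (0.686–0.854), HF-R/Cont 0.507 (0.448–0.574) and HF-R/HF 0.662 (0.585–0.750). The last call ended under 4 other scalings, with values of 0.675 to 0.847, and the HF/Cont value was called lower with TMM factors (0.600) and DESeq2 size factors (0.655). The mirtrons, which are spliced introns that Dicer cuts without Drosha, were scarce. A partially aligned miR-877-3p entry held 30, 33 and 26 counts with no call, and its perfectly aligned form, which overlaps it and may share reads with it, held 3, 3 and 4. miR-877-5p held 2, 3 and 2 counts, and miR-1224-3p held 0, 3 and 4.

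Entries with ratios most like those of miR-320a were found by distance over the log2 ratios HF/Cont and HF-R/Cont, among the 192 entries whose mean was at least 100. With only 3 libraries this is a description of 2 ratios that share the Cont library. The nearest was miR-101-3p at a distance of 0.097. It held 3726, 11375 and 4592 counts, with HF/Cont of 2.34 (2.25–2.43), HF-R/Cont of 0.969 (0.928–1.01) and HF-R/HF of 0.415 (0.401–0.429).

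Next was miR-452-5p at 0.151, with 427, 1152 and 509 counts and HF/Cont of 2.07 (1.85–2.31). A partially aligned miR-17-5p entry and the miR-106a-5p entry followed at 0.188. They held the same counts in every library (357, 938 and 500), so their reads may be shared, with HF/Cont of 2.01 (1.78–2.28). The perfectly aligned sheep entry oar-miR-17-5p, at the same locus, held 1011, 2123 and 1280 counts with HF/Cont of 1.61 (1.49–1.73). The fifth was miR-24-3p at 0.228, with 13133, 32842 and 17847 counts and HF/Cont of 1.91 (1.88–1.95). All 5 were called higher in HF/Cont and lower in HF-R/HF, where 22.8% and 23.3% of the 356 entries were. These calls follow from the choice of the 5 by their ratios and are no further result. The lower calls of miR-17-5p and miR-106a-5p ended with TMM factors (both 0.700). That of miR-24-3p ended with TMM factors (0.714) and DESeq2 size factors (0.679).

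**Figure D5:**
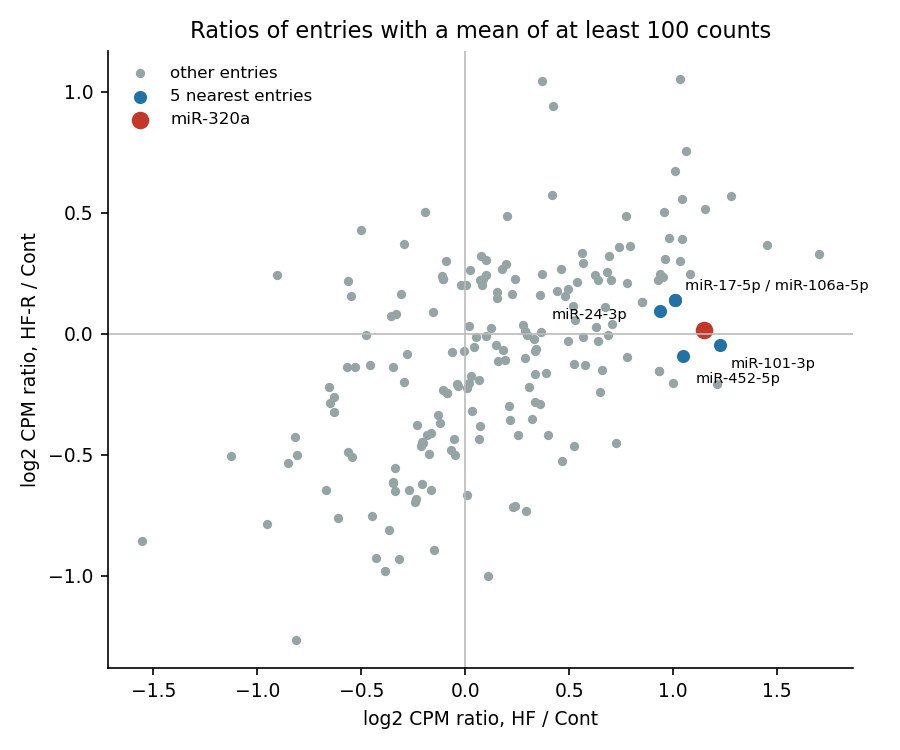
Log2 CPM ratio HF-R/Cont against HF/Cont for the 192 entries whose mean count was at least 100, with perfectly aligned miR-320a and its 5 nearest entries marked. miR-320a lies at 1.15 on the HF/Cont axis and 0.02 on the HF-R/Cont axis, at the right of the cloud and near 0 in height, and 2 of the 5 nearest entries share 1 point.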

How the data were processed

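Small RNA of 15 to 30 nt from 3 libraries was analysed by the authors with Blast against miRBase v21 and mapped with Bowtie to the sheep genome Oar v4.0 (versions of Blast and Bowtie not given in the sources used here). The authors deposited raw counts, 1 per miRNA and library, in merged tables and in tables of each library, split into perfect (100%) and partial (70–99%) matches. The paper describes the percentage as length of read over miRNA. The partial sequences listed for the 22 nt miR-320a had a median of 23 nt, so this measure alone does not give their class. How longer or mismatched reads were classed was not tested. A read can be listed under several miRNAs, so counts of close relatives are not independent. Chromosome numbers were assigned from the order of the RefSeq accessions of the build.

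Entries with the same counts at overlapping positions were taken once. CPM ratios were computed with exact (Clopper-Pearson) 95% intervals, for entries whose mean reached 10, and called at 1.5-fold. With 1 library per condition no p-value was computed. Reads were laid on miR-320a without gaps. Named miRNAs were the members, entries with their seed or within 10 kb, the list of miRNAs made without Drosha or Dicer, and the 5 nearest entries. miR-32-3p, miR-197-3p and oar-miR-17-5p were named after their values were seen. The members and lists were chosen with earlier results of these data known. Alternatives were TMM factors (edgeR 4.0.16), size factors (DESeq2 1.42.0), other totals, filters and folds. The calculation was run on simulated Poisson counts with set folds. These hold no spread between sheep, no PCR duplication and no shared reads, so the run checks the arithmetic only. Python 3.11.15, scipy 1.17.1 and R 4.3.3 were used.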

Additional observations from a re-analysis of the deposited data

How the results depend on the processing

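For miR-320a, 12 of 30 alternative values lay within the interval of the reported ratio and 18 did not. A reversal was counted only where the reported ratio was called, in HF/Cont and HF-R/HF, and there were 0. The values of HF-R/Cont, which was not called, lay on both sides of 1. HF/Cont was 1.74 with TMM factors, 1.90 with DESeq2 size factors, 2.90 with raw counts, 1.22 with partial matches added, 1.08 with partial matches only and 1.31 with partial matches added and the total of both tables. The last 2 kinds were chosen after seeing the data. HF-R/Cont was 1.10 with the total without miR-1, 0.918 with the total of hsa, mmu and rno entries, 0.910 with the total of the perfect match tables and 1.29 with raw counts. HF-R/HF was 0.583 with TMM factors, 0.554 with DESeq2 size factors, 0.503 without miR-1, 0.419 with hsa, mmu and rno entries, 0.415 with the perfect match tables, 0.834 with partial matches added, 0.941 with partial matches only and 0.760 with the total of both tables. TMM factors moved the median log2 ratio of all entries by -0.35 in HF/Cont and 0.35 in HF-R/HF, DESeq2 size factors by -0.22 and 0.28, and raw counts moved HF/Cont by 0.39 and HF-R/Cont by 0.35.

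All 24 alternative values of miR-320e lay within the wide intervals of the merged counts. Most of them only rescaled those counts, which cannot be taken as a measure of miR-320e, so this does not show that its ratios were stable. Its share of the family was 45.6%, 42.2% and 45.7% with the tables of each library. The read sequences of miR-320a numbered 1246 with partial matches and 1 with perfect matches only.

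Entries past the fold in HF/Cont numbered 109 of 356, and 61 of the smaller set of 192 with a mean of at least 100. Of the 356 they numbered 169 at a fold of 1.2, 50 at a fold of 2 and 166 with raw counts. In HF-R/Cont they numbered 57 of 356 and 29 of 192, with 115 and 18 of 356 at the folds of 1.2 and 2. In HF-R/HF they numbered 101 of 356 and 57 of 192, with 176 and 41 of 356 at these folds. The share of calls that were higher was 74.3% in HF/Cont, 36.2% with TMM factors, 49.5% with DESeq2 size factors and 96.4% with raw counts. In HF-R/HF it was 17.8%, 63.7% with TMM factors, 51.8% with DESeq2 size factors and 31.2% without miR-1. In HF-R/Cont it was 29.8%, 53.8% without miR-1, 18.2% with hsa, mmu and rno entries, 17.5% with the perfect match tables and 87.7% with raw counts. The cause of these shifts was not tested.

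No paired analysis was possible because each condition was 1 pooled library. Depth limits miR-320-5p and the mirtrons, where counts of 0 to 33 leave wide intervals. For miR-320e the limits are merged counts that equal those of miR-32-3p and reads that were also listed under miR-320a. Sheep differ, and that spread is not in any interval given here.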

Other observations

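A few reads were listed under miR-320e and not under miR-320a, 3, 9 and 7 read sequences (Cont, HF, HF-R). Of these, 3, 6 and 7 lay within 4 mismatches of miR-197-3p, a miRNA at chr1:85905040-85905061, and 2 of them were listed in all 3 libraries. The longest run that the reverse complement of either of these 2 shared with miR-320e was 15 bases, whereas that of miR-197-3p itself shared 7. Why the reads were listed under miR-320e was not tested. The perfect counts of miR-197-3p were 765, 1315 and 728, with HF/Cont of 1.32 (1.203–1.44), HF-R/Cont of 0.748 (0.675–0.829) and HF-R/HF of 0.569 (0.519–0.623). The last was called lower, and with TMM factors (0.727) and DESeq2 size factors (0.691) it was not.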
